A study of Macaca mulatta with 34 samples.

Results

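The collagen genes were taken as every gene whose symbol, mapped from its Ensembl macaque identifier, has the form COL, a number, A and a number. There were 43 of them among the 34847 gene identifiers counted in deep cerebellar nuclei of rhesus macaques, and they comprise 11 fibrillar, 8 basement membrane and 24 other collagen genes. The 24 others are 5 genes of the type VI family, 10 fibril-associated collagens, 3 short-chain network collagens, 4 transmembrane collagens and 2 placed in none of these classes (COL26A1 and COL28A1). COL7A1, the anchoring fibril collagen, was not analysed here.

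Total RNA was sequenced from 22 animals in a pair of studies of adeno-associated virus (AAV) delivery of RNA interference constructs, injected into the deep cerebellar nuclei, the output nuclei of the cerebellum, under magnetic resonance guidance. In Study 1, which looked for the source of toxicity seen after AAV.miS1, 6 animals were given AAV.miS1, a vector for an artificial microRNA against ATXN1, and 4 were given vehicle. In Study 2, which characterised responses to redesigned constructs, 3 animals each were given empty capsid, intmiS1, miSCA7Stuffer or StufferOnly. As background, intmiS1 is another construct carrying the microRNA of AAV.miS1, miSCA7 is an artificial microRNA against ATXN7, and a stuffer is filler sequence in a vector genome. The labels give the animals separate identifiers and describe the constructs by name only. Ages, doses and the interval from injection to sampling were not stated in these sources. Markers of neurons of these nuclei and of cerebellum were detected in every group.

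Collagens are mostly extracellular proteins whose chains wind into helical trimers, and some types are built from the products of several genes. The fibrillar types I, III and V form the tensile fibrils of connective tissue, with type I made of COL1A1 and COL1A2 chains, type III of COL3A1 chains, and type V seeding fibril assembly. Type IV collagens form the sheet-like network of basement membranes, which in brain surrounds blood vessels and lines the outer surface. Type VI, made mainly of COL6A1, COL6A2 and COL6A3, forms beaded filaments between cells and fibrils, while fibril-associated collagens such as type IX decorate the surface of fibrils. In healthy brain, fibrillar collagen is found chiefly in the meninges and the walls of larger vessels, and fibroblast-like cells of those sites are known to lay it down in fibrotic scars after injury.

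Levels are given as CPM, counts divided by a library total that was adjusted by edgeR's TMM scaling within each study, so Study 1 levels should not be set against those of Study 2. CPM is not divided by transcript length, so it compares a gene between libraries and not one gene with another. Study 1 libraries held 2049685 to 4810852 counts in genes, apart from vehicle replicate 2 with 87741, in which 1 count is worth 10.3 CPM and 3 counts, the limit that a count of 0 allows, 31 CPM. Study 2 libraries counted with featureCounts held 20978241 to 39792653, and intmiS1 replicates 1 and 2, counted with STAR, 5169866 and 4858179. These limits cover counting error only. In bulk tissue, fewer cells of a type and less RNA per cell cannot be told apart.

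Sense and antisense reads were told apart in Study 1. Study 2 values were treated as unstranded, although the strand setting of featureCounts is not stated. In the 12 STAR tables the median collagen gene had 0.495% of its stranded counts on the opposite strand, but 9 of the 43 genes had over 20%. They were COL6A6 (97.1%), COL10A1 (91.7%), COL17A1 (77.7%), COL25A1 (72.5%), COL4A3 (29.9%), COL28A1 (26.7%), COL4A4 and COL19A1 (22.7% each) and COL18A1 (21.1%). Study 2 values of these genes may include reads of another transcript. Some collagen genes lie next to each other in the RefSeq gene table (T2T-MMU8v2.0), namely COL3A1 and COL5A2, COL6A2 and COL6A1, COL6A5 and COL6A6, and COL9A1 and COL19A1. The gene models of COL4A1 and COL4A2 overlap, as do those of COL4A3 and COL4A4, and reads there may count for both genes in Study 2.

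In animals given AAV.miS1, 4 of 10 tested fibrillar collagen genes and 2 of 3 tested genes of the type VI family were higher than in vehicle animals, and 0 of 7 basement membrane genes passed the test. COL1A1 and COL1A2, the chains of type I collagen, COL3A1, the chain of type III, COL5A1, a chain of type V, and COL6A1 and COL6A3 of type VI rose. That is 6 of the 30 collagen genes tested (20%), against 7.22% of the 13383 genes tested, by edgeR's quasi-likelihood test with Benjamini-Hochberg adjustment over all genes. None of the 30 fell, where 0.284% of all genes did. Every AAV.miS1 library lay above every vehicle library for 3 of the 30 (COL3A1, COL5A1 and COL4A2), against 7.46% of all genes, and below for 0, against 2.89%. The median log2 fold change was 0.82 over the 30 collagen genes and 0.02 over all genes. The other 13 collagen genes had too few counts to be tested, so these counts do not speak for all 43.

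**Figure D1:**
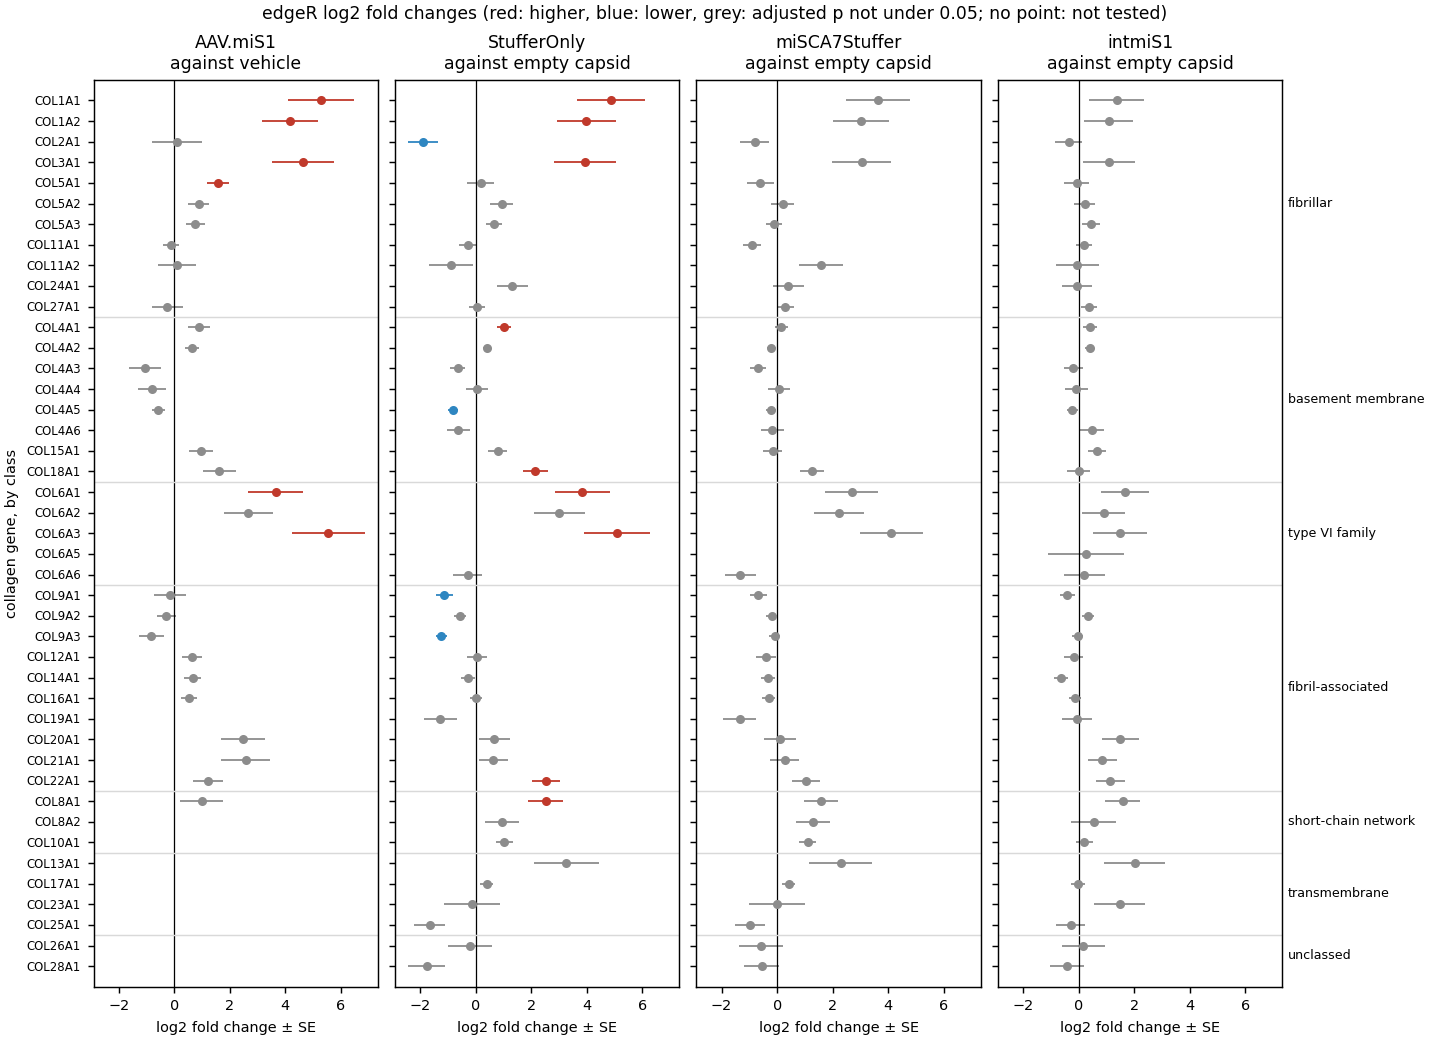
The log2 fold change of each collagen gene (points, with SE as bars) in the 4 comparisons against control, by class from top to bottom; red points are higher and blue points lower at an adjusted p under 0.05, grey points did not pass, and genes without a point were not tested. COL1A1, COL1A2, COL3A1, COL6A1 and COL6A3 are red against vehicle for AAV.miS1 and against empty capsid for StufferOnly, and no point is coloured for miSCA7Stuffer or intmiS1.

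COL1A1 was at 0.43, 10.3, 4.47 and 2.97 CPM in vehicle replicates 1 to 4 and at 9.13 to 254 CPM in the 6 AAV.miS1 libraries (median 88.2). All AAV.miS1 libraries lay above vehicle replicates 1, 3 and 4, and replicate 5, the lowest, lay below vehicle replicate 2, whose value is a single count. The log2 fold change was 5.29 (SE 1.20, edgeR adjusted p = 0.0313). COL1A2, which pairs with COL1A1 in type I collagen, was at 3.44, 10.3, 5.03 and 6.27 CPM with vehicle and 9.81 to 215 CPM with AAV.miS1 (median 59.4). Its log2 fold change was 4.16 (SE 1.01, edgeR adjusted p = 0.0356), and again only the single count of vehicle replicate 2 overlapped the AAV.miS1 range.

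COL3A1 was at 6.02, 0, 3.91 and 5.28 CPM with vehicle and 9.13 to 313 CPM with AAV.miS1 (median 77.5), a log2 fold change of 4.64 (SE 1.12, edgeR adjusted p = 0.0355). The groups did not overlap, but the 0 in vehicle replicate 2 allows up to 31 CPM. COL5A1 showed a smaller and more even change, from 13.3, 0, 11.7 and 22.4 CPM with vehicle to 25.4 to 61.5 CPM with AAV.miS1 (median 49.3), a log2 fold change of 1.58 (SE 0.38, edgeR adjusted p = 0.0357). COL5A2, the partner chain of COL5A1, was at 11.8 to 38.3 CPM against 11.2 to 20.7 CPM (log2 fold change 0.88, SE 0.37, edgeR adjusted p = 0.158).

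Among the chains of type VI collagen, COL6A3 had a log2 fold change of 5.56 (SE 1.31, edgeR adjusted p = 0.0341). It was at 1.72, 10.3, 2.24 and 1.65 CPM with vehicle and 5.41 to 274 CPM with AAV.miS1 (median 66.3). COL6A1 was at 6.88, 31, 4.47 and 5.61 CPM with vehicle and 10.8 to 220 CPM with AAV.miS1 (median 54.4), a log2 fold change of 3.66 (SE 0.99, edgeR adjusted p = 0.0483). For both chains the overlap came from vehicle replicate 2, with 1 and 3 counts. COL6A2 was at 7.75, 0, 10.9 and 8.58 CPM with vehicle and 6.09 to 145 CPM with AAV.miS1, and its log2 fold change of 2.67 (SE 0.89) did not pass (edgeR adjusted p = 0.0904).

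The AAV.miS1 libraries differed widely among themselves, and they did so in the same order for most of these chains. Replicates 1 and 4 were highest for COL1A1 (254 and 241 CPM), COL1A2 (215 and 190), COL3A1 (313 and 239), COL6A1 (220 and 135) and COL6A3 (274 and 165). Replicates 2 and 3 were intermediate, with COL1A1 at 64 and 112 CPM and COL6A3 at 45.7 and 87. Replicates 5 and 6 were close to vehicle, with COL1A1 at 9.13 and 16.1 CPM and COL6A3 at 5.41 and 9.49. The summed level of COL1A1, COL1A2 and COL3A1 ran from 28.1 to 783 CPM with AAV.miS1 and from 9.9 to 20.7 CPM with vehicle.

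**Figure D2:**
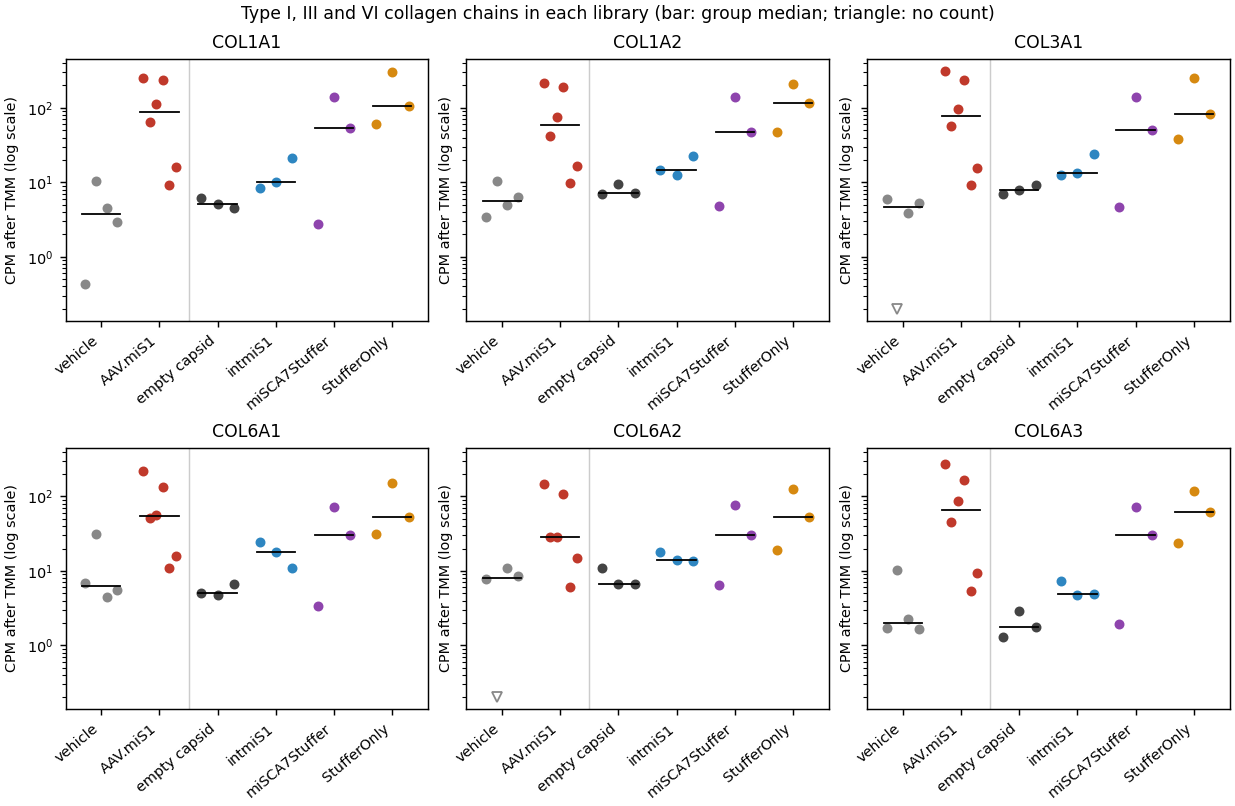
CPM after TMM (log axis) of the chains of types I, III and VI in each library, by group along the horizontal axis; points are single animals in replicate order, bars are group medians, and an open triangle marks a library with no count, drawn at the foot of the axis. AAV.miS1 libraries spread from near the vehicle level to 254 CPM in COL1A1, StufferOnly libraries lie above empty capsid libraries, and miSCA7Stuffer replicate 1 lies with the controls.

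The 7 basement membrane genes tested had a median log2 fold change of 0.63, beside 0.82 for the 10 fibrillar genes, and no test compared these classes. An unadjusted p under 0.05 was found for 5 of the 7, among them COL4A5 with a negative value, and for 6 of the 10. The matching share of all genes is not given here, so these counts are a description only. The summed CPM of the basement membrane genes was 164 to 248 with AAV.miS1 against 145 to 183 with vehicle. COL4A1 and COL4A2, which pair in the type IV collagen of vessels, had log2 fold changes of 0.89 (SE 0.40) and 0.63 (SE 0.25), with edgeR adjusted p of 0.185 and 0.136. COL4A2 was at 39.2 to 87 CPM in all AAV.miS1 libraries, above the 20.7 to 38.3 CPM of vehicle. COL18A1, a basement membrane collagen that also yields endostatin, was at 9.81 to 79.4 CPM against 8.11 to 12.9 CPM (log2 fold change 1.63, SE 0.60, edgeR adjusted p = 0.116). COL15A1, its relative, had a log2 fold change of 0.96 (SE 0.42, edgeR adjusted p = 0.171). COL4A3, COL4A4 and COL4A5, chains of more restricted basement membranes, had negative values of -1.05 (SE 0.56), -0.80 (SE 0.51) and -0.57 (SE 0.23), with edgeR adjusted p of 0.248, 0.326 and 0.145.

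The fibril-associated collagens showed no call in either direction among 9 tested. COL20A1 and COL21A1 had the highest log2 fold changes, 2.47 (SE 0.80) and 2.57 (SE 0.88), with edgeR adjusted p of 0.0820 and 0.0958. COL9A3, a chain of type IX collagen, was at 10.7 to 51.7 CPM with AAV.miS1 and 37.4 to 72.4 CPM with vehicle (log2 fold change -0.82, SE 0.44, edgeR adjusted p = 0.250). COL12A1 and COL14A1, which bind the surface of type I fibrils, had log2 fold changes of 0.64 (SE 0.37) and 0.66 (SE 0.31), with edgeR adjusted p of 0.278 and 0.200. COL8A1, a short-chain collagen of vessel walls, was at 0.475 to 17.4 CPM against 1.68 to 10.3 CPM (edgeR adjusted p = 0.424).

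The share of collagen counts that came from fibrillar genes was 21.5% to 26.8% in vehicle libraries and 25.4% to 48.3% with AAV.miS1. The type VI family took 2.54% to 6.15% with vehicle and 3% to 31.2% with AAV.miS1. Basement membrane genes took 21.5% to 29.3% with vehicle and 11.2% to 25.3% with AAV.miS1, although their summed CPM was not lower. Shares of 1 total move against each other.

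The AAV.miS1 calls rest on few libraries. No collagen gene passed when any 1 of the 4 vehicle libraries or AAV.miS1 replicate 4 was left out, 1 passed without AAV.miS1 replicate 3, 3 without replicate 2 and 10 without replicate 5. Without replicate 1 or 6 the count lay within 0 to 10. The matching shares of all genes are mostly not given here, so these counts are a description only. Without vehicle replicate 2 all 6 AAV.miS1 libraries lay above the other vehicle libraries for all 6 genes called, while only 2 of all 13739 genes tested were called higher. These 6 genes were chosen by calls from the same libraries, and the matching share of all genes is not given here. Their separation is a description only and no support for the calls. Libraries also fell into sets by the share of unmapped reads, over 15% in vehicle replicates 2 to 4 and AAV.miS1 replicates 5 and 6. Within that set none of the 6 genes passed, and their log2 fold changes were 0.71 to 1.74. There COL6A1 averaged 13.7 CPM with vehicle and 13.2 CPM with AAV.miS1, but the vehicle mean includes 31 CPM from 3 counts in replicate 2. Without that replicate, vehicle libraries were at 6.88 CPM or less, and AAV.miS1 libraries at 10.8 CPM or more. In the other set COL1A1 was at 0.43 CPM in the 1 vehicle library and at 64 CPM or more in the 4 AAV.miS1 libraries, without a test.

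In animals given StufferOnly, COL1A1, COL1A2 and COL3A1 of types I and III and COL6A1 and COL6A3 of type VI were higher than with empty capsid, as were COL22A1, COL8A1, COL18A1 and COL4A1, and the type IX chains COL9A1 and COL9A3 were lower. Of 42 collagen genes tested 9 rose (21.4%), against 11.6% of the 20882 genes tested, and 4 fell (9.52%), against 3.81%. Those that fell besides the type IX chains were COL2A1, the fibrillar collagen of cartilage, and COL4A5, a type IV chain. Every StufferOnly library lay above every empty capsid library for 16 of the 42 (38.1%), against 26.8% of all genes, and below for 8 (19.0%), against 22.3%. COL6A5 was not tested.

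COL1A1 was at 6.25, 5.12 and 4.51 CPM with empty capsid and 61.4, 300 and 106 CPM with StufferOnly. Its log2 fold change was 4.88 (SE 1.22, edgeR adjusted p = 0.0329). COL1A2 went from 6.95, 9.63 and 7.23 CPM to 47.1, 213 and 117 CPM (log2 fold change 3.98, SE 1.05, edgeR adjusted p = 0.0378). In both chains StufferOnly replicate 2 was highest and replicate 1 lowest, and every StufferOnly library lay above every control. COL3A1 followed that order, from 6.98, 7.79 and 9.22 CPM to 38.2, 249 and 83.2 CPM, with a log2 fold change of 3.95 (SE 1.12, edgeR adjusted p = 0.0465).

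COL6A3 was at 1.3, 2.93 and 1.79 CPM with empty capsid and 23.9, 120 and 62.5 CPM with StufferOnly, a log2 fold change of 5.10 (SE 1.19, edgeR adjusted p = 0.0274). COL6A1 went from 5.1, 4.82 and 6.64 CPM to 31.6, 154 and 52.7 CPM (log2 fold change 3.84, SE 1.00, edgeR adjusted p = 0.0367). COL6A2 stood at 10.9, 6.77 and 6.73 CPM and at 19.3, 126 and 52.3 CPM, without overlap, but did not pass (log2 fold change 3.01, SE 0.91, edgeR adjusted p = 0.0570). All 3 chains were highest in StufferOnly replicate 2.

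A second set of collagen genes rose by less and more evenly between animals. COL22A1, a fibril-associated collagen of tissue junctions, was at 1.43, 0.527 and 2.29 CPM with empty capsid and 9.4, 5.48 and 9.75 CPM with StufferOnly (log2 fold change 2.53, SE 0.51, edgeR adjusted p = 0.0207). In this gene StufferOnly replicate 2 was the lowest of its group, unlike the chains of types I, III and VI. COL4A1 was at 8.49, 10 and 13.3 CPM and at 24.6, 24 and 16.1 CPM (log2 fold change 1.02, SE 0.24, edgeR adjusted p = 0.0292). COL4A2, whose gene model overlaps that of COL4A1, was at 30.4 to 38.9 CPM and 43.7 to 47.2 CPM and did not pass (log2 fold change 0.41, SE 0.15, edgeR adjusted p = 0.104).

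COL18A1 was at 10.7, 11.6 and 13 CPM with empty capsid and 41.9, 74.5 and 40.5 CPM with StufferOnly (log2 fold change 2.15, SE 0.44, edgeR adjusted p = 0.0214). COL8A1 was at 0.286, 1.43 and 0.697 CPM and at 2.57, 7.1 and 4.07 CPM (log2 fold change 2.52, SE 0.63, edgeR adjusted p = 0.0329). COL15A1 and COL13A1, a transmembrane collagen, were also higher without overlap but did not pass, with edgeR adjusted p of 0.146 and 0.0904.

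Among the genes that fell, COL9A3 was at 63.4, 51.3 and 53.7 CPM with empty capsid and 18.5, 25.7 and 27.3 CPM with StufferOnly. The log2 fold change was -1.24 (SE 0.21, edgeR adjusted p = 0.0181). COL9A1 was at 21.2, 13.7 and 19.1 CPM and at 10.5, 6.82 and 7.36 CPM (log2 fold change -1.13, SE 0.31, edgeR adjusted p = 0.0426). COL9A2, the remaining chain of type IX, was at 125, 124 and 80.8 CPM and at 69.3, 75 and 80.5 CPM, lower in every StufferOnly library by a narrow margin, and did not pass (log2 fold change -0.56, SE 0.21, edgeR adjusted p = 0.111).

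COL4A5 was at 117, 120 and 87.5 CPM with empty capsid and 48.3, 68.1 and 67.6 CPM with StufferOnly (log2 fold change -0.82, SE 0.19, edgeR adjusted p = 0.0262). COL2A1 was at 5.6, 12.5 and 4.31 CPM and at 1.88, 1.49 and 2.61 CPM (log2 fold change -1.90, SE 0.54, edgeR adjusted p = 0.0488). In neither gene did the groups overlap, and the StufferOnly libraries were closer together than the controls. With AAV.miS1, COL4A5 was at 39.2 to 85.2 CPM against 84.2 to 102 CPM with vehicle, without passing. COL2A1 was at 0 to 5.22 CPM against 1.12 to 10.3 CPM, where 10.3 CPM is a single count in vehicle replicate 2. Its log2 fold change was 0.11 (SE 0.90, edgeR adjusted p = 0.954).

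**Figure D3:**
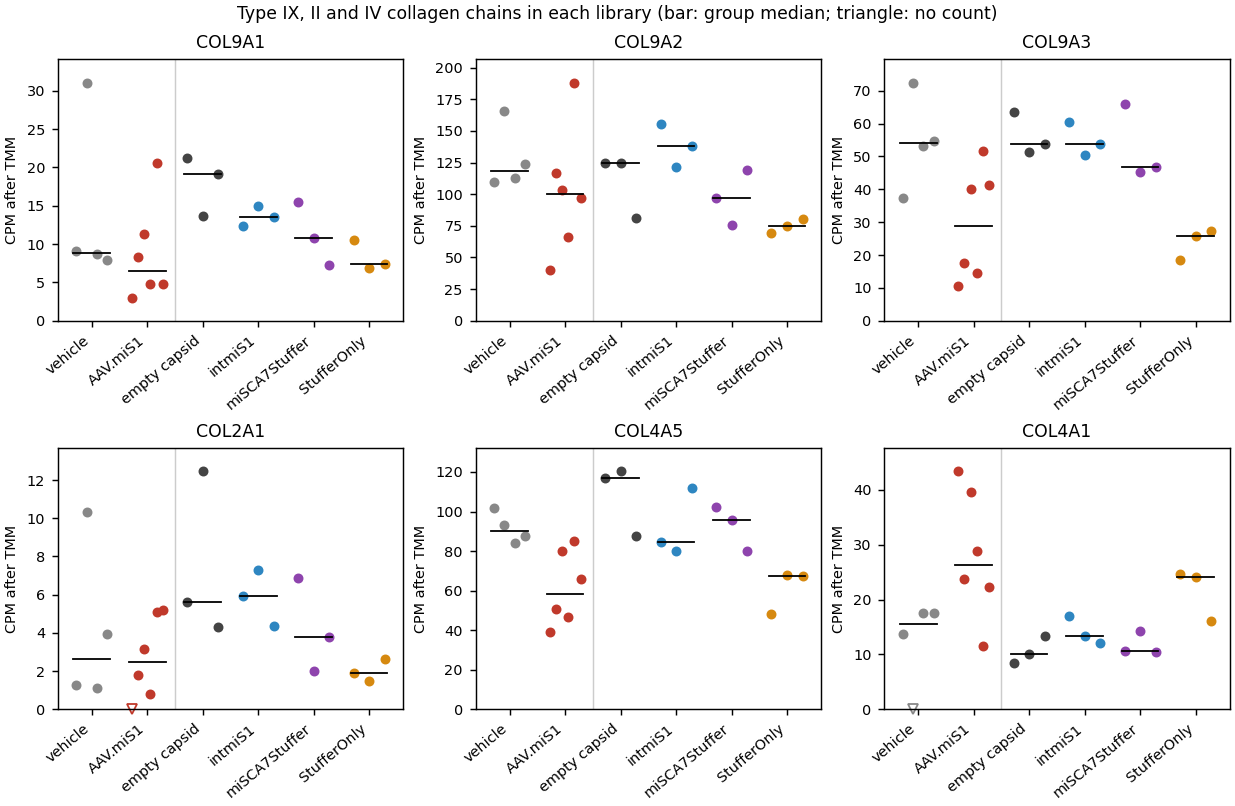
CPM after TMM (linear axes from 0, a separate scale for each gene) of the type IX chains, COL2A1, COL4A5 and COL4A1 in each library by group; points are single animals in replicate order, bars are group medians and an open triangle marks a library with no count. StufferOnly libraries lie below empty capsid libraries in COL9A1, COL9A3, COL2A1 and COL4A5 and above them in COL4A1.

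By class, 3 of 11 fibrillar, 2 of 8 basement membrane and 4 of 23 other collagen genes rose with StufferOnly, and 1, 1 and 2 fell. The summed CPM of COL1A1, COL1A2 and COL3A1 was 147, 762 and 306 with StufferOnly and 20.2 to 22.5 with empty capsid. That of COL6A1, COL6A2 and COL6A3 was 74.7 to 399.6 CPM against 14.5 to 17.3 CPM. Type IX summed to 98.3 to 115 CPM against 154 to 210 CPM, and all 8 basement membrane genes to 175 to 231 CPM against 163 to 201 CPM. Fibrillar genes took 36.1% to 50.2% of collagen counts with StufferOnly and 23.2% to 27.1% with empty capsid.

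The StufferOnly calls also depend on single libraries. No collagen gene passed in either direction without any 1 of the empty capsid libraries, or without StufferOnly replicate 2 or 3, and few genes of any kind did. The genes called higher over the whole table then numbered 0 to 16 without an empty capsid library, 21 without StufferOnly replicate 2 and 44 without replicate 3, against 2424 with all libraries. Without StufferOnly replicate 1, 2 rather than 4 collagen genes fell, and the matching share of all genes is not given here.

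**Figure D4:**
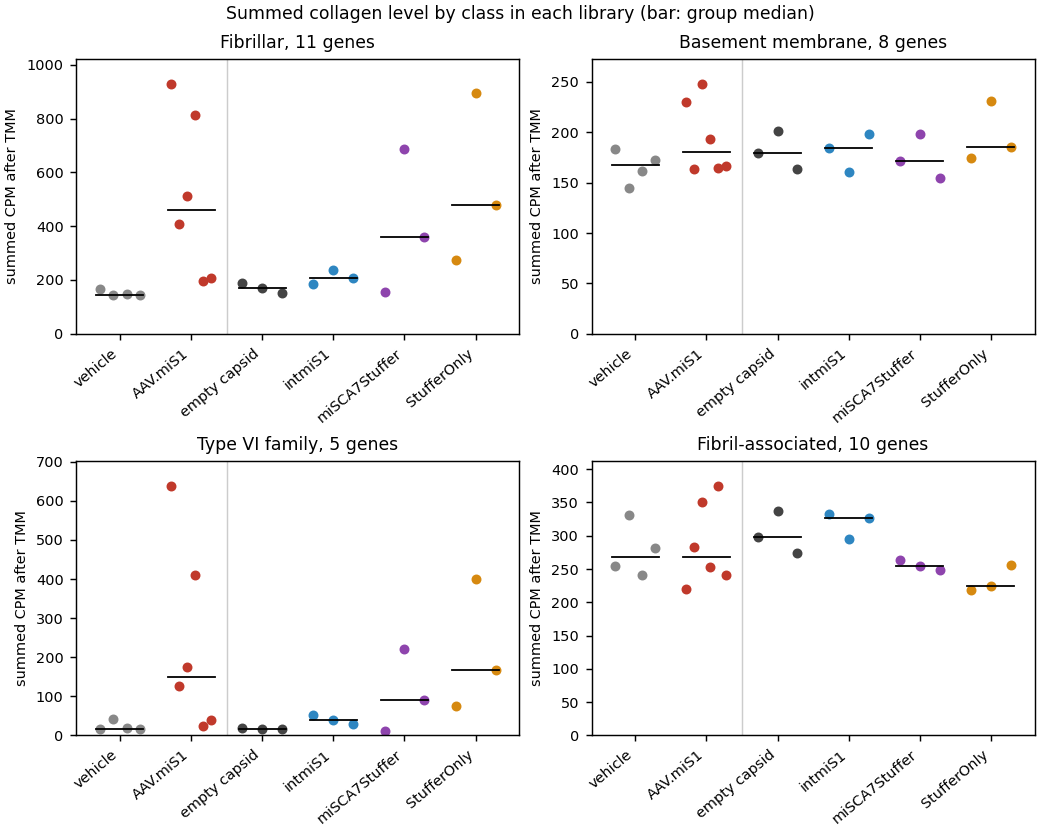
Summed CPM after TMM of the fibrillar, basement membrane, type VI family and fibril-associated collagen genes in each library by group (points, single animals in replicate order; bars, group medians; axes from 0). Fibrillar and type VI sums are high in AAV.miS1 replicates 1 to 4, in miSCA7Stuffer replicates 2 and 3 and in StufferOnly, while basement membrane sums stay between 145 and 248 CPM in all 22 libraries.

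In animals given miSCA7Stuffer, 2 libraries resembled StufferOnly in the chains of types I, III and VI, and 1 resembled empty capsid. COL1A1 was at 2.75 CPM in replicate 1 and at 140 and 53.3 CPM in replicates 2 and 3. COL6A3 was at 1.92, 71.7 and 30.2 CPM, and COL3A1 at 4.7, 142 and 50.4 CPM. Replicate 1 was below the lowest empty capsid library for COL1A1, COL1A2, COL3A1, COL6A1 and COL6A2, and the other replicates were above the highest. Replicate 1 also held 54 counts of the vector backbone, or 1.64 CPM of gene counts, against 349 and 257 CPM in replicates 2 and 3 and 0.151 to 0.281 CPM with empty capsid. In StufferOnly the backbone was at 349.7, 625.3 and 247.5 CPM in replicates 1 to 3, with replicate 2 highest in both backbone and COL1A1 and replicate 1, lowest in COL1A1, second in backbone. In AAV.miS1 it was at 7.48, 67.8, 17.1, 20.4, 2.37 and 4.88 CPM in replicates 1 to 6, with replicate 2 highest in backbone and replicate 1 highest in COL1A1. Replicates 5 and 6 were lowest in both. In intmiS1 the backbone was at 0.387, 1.44 and 0.372 CPM in replicates 1 to 3. In vehicle it was at 0.881, 0, 0.872 and 0.336 CPM in replicates 1 to 4. The part of vector content in the differences between these libraries was not tested.

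Of 42 collagen genes tested, 0 passed in either direction by edgeR, 12 had an unadjusted p under 0.05 (23% of all genes did), and DESeq2 called 8 higher and 1 lower. Over all 20882 genes edgeR called 0.00479% higher and 0% lower, and DESeq2 7.22% and 3.98%. The log2 fold changes of the fibrillar chains were 3.63 (SE 1.15) for COL1A1, 3.02 (SE 1.01) for COL1A2 and 3.04 (SE 1.07) for COL3A1, and that of COL6A3 was 4.12 (SE 1.14), with edgeR adjusted p from 0.135 to 0.161. Without replicate 1, edgeR called 9 collagen genes higher and 4 lower, against 15.6% and 16.8% of all genes. Those higher were COL1A1, COL1A2, COL3A1, COL6A1, COL6A2, COL6A3, COL10A1, COL13A1 and COL18A1. Those lower were COL9A1, COL11A1, COL19A1 and COL25A1. COL10A1, COL25A1, COL19A1 and COL18A1 are among the genes with much of their signal on the opposite strand.

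Of the type IX chains, COL9A1 and COL9A2 overlapped between miSCA7Stuffer and StufferOnly. COL9A3 was at 66.1, 45.4 and 46.6 CPM with miSCA7Stuffer, overlapping empty capsid and above the 18.5 to 27.3 CPM of StufferOnly. Tested directly, no collagen gene differed between miSCA7Stuffer and StufferOnly, where 0% of all genes were called in either direction. An unadjusted p under 0.05 was found for 8 of 42, against 10.1% of all genes, and DESeq2 called 2 higher and 1 lower. The share of all genes that DESeq2 called there is not given here. The log2 fold change of COL9A3 between these groups was 1.15 (SE 0.21, edgeR adjusted p = 0.228) and that of COL1A1 was -1.25 (SE 1.04, edgeR adjusted p = 0.730).

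In animals given intmiS1, collagen levels stayed nearer to those of empty capsid. No collagen gene of 43 tested passed in either direction, as no gene of all 21501 did (0%), and 4 of the 43 had an unadjusted p under 0.05, against 8.52% of all genes. DESeq2 called none of them. COL1A1 was at 8.38, 10.2 and 21.3 CPM, above the 4.51 to 6.25 CPM of empty capsid, with a log2 fold change of 1.36 (SE 1.00, edgeR adjusted p = 0.686). COL6A1 was at 24.8, 17.7 and 11 CPM against 4.82 to 6.64 CPM (log2 fold change 1.67, SE 0.87, edgeR adjusted p = 0.590).

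In 10 of 43 collagen genes (23.3%) every intmiS1 library lay above every empty capsid library, against 9.5% of all genes, and 1 of 43 (2.33%) lay below, against 10.7%. The 10 included COL1A1, COL1A2, COL3A1, COL6A1, COL6A2, COL6A3, COL4A2 and COL15A1. COL14A1 was the gene that lay below, at 14.3 to 18.1 CPM against 21.2 to 29 CPM (log2 fold change -0.64, SE 0.25, edgeR adjusted p = 0.576). Replicates 1 and 2 of intmiS1 were counted with another program than the controls, and the part of that in these levels was not tested. The fit with the program as a covariate cannot test it, since replicate 3 alone then sets the intmiS1 effect.

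Against StufferOnly, intmiS1 libraries had lower COL18A1 and COL6A3 and higher COL9A3 and COL9A2. These were 2 higher and 2 lower of 43 tested (4.65% each), against 3.4% and 8.46% of all 21501 genes, so the shares were near the background. COL9A3 was at 60.6, 50.3 and 53.6 CPM with intmiS1 and 18.5 to 27.3 CPM with StufferOnly (log2 fold change 1.20, SE 0.20, edgeR adjusted p = 0.0111). COL9A2 was at 156, 122 and 138 CPM against 69.3 to 80.5 CPM (log2 fold change 0.89, SE 0.21, edgeR adjusted p = 0.0235). COL6A3 was at 7.24, 4.72 and 4.97 CPM against 23.9 to 120 CPM (log2 fold change -3.62, SE 1.02, edgeR adjusted p = 0.0437). COL18A1 had a log2 fold change of -2.15 (SE 0.43, edgeR adjusted p = 0.0158). The part of the counting program in these differences was not tested. With the program as a covariate, intmiS1 replicate 3 alone sets the effect, so that fit cannot test it.

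Across the comparisons against control, 14 of 43 collagen genes (32.6%) passed in at least 1, against 16% of all genes, and 29 in none. Of the 6 genes higher with AAV.miS1 and the 9 higher with StufferOnly, 5 were in both lists (COL1A1, COL1A2, COL3A1, COL6A1 and COL6A3), and these comparisons share no library. That is 5 of the 30 collagen genes tested in both (16.7%), against 5.78% of all genes. Of all genes higher with AAV.miS1, 80% were also higher with StufferOnly, and of those higher with StufferOnly 31.9% were also higher with AAV.miS1. COL5A1 was called with AAV.miS1 alone, with a log2 fold change of 0.18 (SE 0.49) against empty capsid for StufferOnly. The direct test of the difference of these effects gave 1.42 (SE 0.61, unadjusted p = 0.0312, edgeR adjusted p = 1.00). No collagen gene of 37 tested differed between the AAV.miS1 effect and that of StufferOnly, intmiS1 or miSCA7Stuffer (0% of all 16537 genes). In that order 2, 6 and 7 had an unadjusted p under 0.05. The matching shares of all genes are not given here, so these counts are a description only. For COL1A1 the AAV.miS1 effect exceeded the StufferOnly effect by 0.46 (SE 1.56) and the intmiS1 effect by 3.88 (SE 1.60, edgeR adjusted p = 0.230) on the log2 scale. The StufferOnly, miSCA7Stuffer and intmiS1 comparisons share the empty capsid libraries.

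Ratios between the chains of 1 collagen type are given as a description, without a test. The ratio of COL6A3 counts to COL6A1 counts was 0.25 to 0.5 in the 3 vehicle libraries with enough counts for a ratio and 0.5 to 1.53 with AAV.miS1, and the vehicle ratios rest on 4, 8 and 5 counts of COL6A3. It was 0.255 to 0.609 with empty capsid, 0.267 to 0.45 with intmiS1, 0.563 to 1 with miSCA7Stuffer and 0.756 to 1.19 with StufferOnly. The ratio of COL6A1 counts to COL6A2 counts was 0.41 to 0.889 with vehicle and 1.06 to 1.99 with AAV.miS1, without overlap. COL1A1 to COL1A2 counts were at 0.531 to 0.899 with empty capsid and 0.9 to 1.41 with StufferOnly. COL9A2 to COL9A3 counts were at 1.51 to 2.43 with empty capsid and 2.92 to 3.75 with StufferOnly. The ratio of COL4A2 to COL4A1 counts overlapped between vehicle (2 to 2.78) and AAV.miS1 (1.27 to 3.65), and between empty capsid (2.45 to 3.87) and StufferOnly (1.82 to 2.74). The ratio of COL4A3 to COL4A4 counts also overlapped between empty capsid (2.08 to 4.18) and StufferOnly (1.55 to 2.21).

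Most counts in control libraries came from collagens other than the ones that rose. COL9A2, COL4A5, COL9A3 and COL12A1 gave the most CPM in both control groups, which also depends on transcript length. COL9A2 was at 110 to 165 CPM with vehicle and 80.8 to 125 CPM with empty capsid, and COL12A1 at 31 to 64.7 and 40.5 to 93.1 CPM. COL12A1 did not pass in any comparison, with log2 fold changes of 0.64 with AAV.miS1 and 0.04 with StufferOnly. At the low end, COL6A6 had no count in any of the 10 Study 1 libraries and COL6A5 none in the vehicle libraries. COL4A6, COL6A5, COL6A6, COL8A2, COL19A1, COL25A1, COL26A1 and COL28A1 stayed under 3 CPM in every library. In vehicle replicate 2 only a count of 0 can lie under 3 CPM, and a 0 there allows up to 31 CPM. COL6A6, COL19A1, COL25A1 and COL28A1 are among the genes with signal on the opposite strand.

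Genes that make, process, bind and degrade collagen were followed as lists, with calls from the same fits. In the AAV.miS1 comparison the list of collagen degradation and uptake had 6 of 12 tested genes higher and that of fibrogenic signals 6 of 15. Of fibril partners 4 of 14 rose, of collagen folding and modification 2 of 18, of procollagen cleavage and crosslinking 2 of 10, of basement membrane partners 2 of 13 and of collagen receptors 2 of 8. None fell in these lists. Over all genes tested 7.22% rose, so the lists of folding and basement membrane genes, at 2 of 18 and 2 of 13, were near that share. Their median log2 fold changes were 2.70, 0.98, 1.02, 0.43, 1.32, 1.08 and 0.79 in that order, against 0.02 over all genes.

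Within those lists, MMP14, a membrane protease that cleaves fibrillar collagen, rose from 12.8 ± 7.54 CPM (SD, n = 4) with vehicle to 233 ± 198 CPM (SD, n = 6) with AAV.miS1. TIMP1, a protease inhibitor, rose from 30 ± 15.1 to 168 ± 90.7 CPM, and MMP2, a gelatinase, from 26.3 ± 24 to 260 ± 202 CPM. TGFBR2, a receptor gene for transforming growth factor beta, rose from 44.6 ± 8.04 to 244 ± 145 CPM. PCOLCE, which enhances removal of the procollagen tail, rose from 1.22 ± 1.26 to 34.6 ± 37.5 CPM. Among folding genes COLGALT1, a collagen galactosyltransferase, rose from 21.7 ± 13.3 to 79.9 ± 54.9 CPM, and PLOD1, a lysyl hydroxylase, from 18.5 ± 3.3 to 47.6 ± 22.4 CPM. TNC, a matrix glycoprotein, rose from 49.9 ± 24.7 to 192 ± 71.8 CPM, HSPG2, the perlecan core of basement membranes, from 40.3 ± 14.6 to 159 ± 88.6 CPM, and LAIR1, an inhibitory collagen receptor of immune cells, from 17.8 ± 15.7 to 106 ± 58.9 CPM.

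In the StufferOnly comparison, collagen degradation and uptake had 9 of 14 tested genes higher and 1 lower, fibrogenic signals 6 of 16 higher and 2 lower, and folding and modification 5 of 19 higher. Cleavage and crosslinking had 5 of 13 higher, receptors 3 of 9 higher and 1 lower, basement membrane partners 3 of 15 higher, and fibril partners 1 of 17 higher and 1 lower. Over all genes tested 11.6% rose and 3.81% fell, so the share of fibril partners that rose was below that of all genes. The median log2 fold changes were 2.75, 0.42, 0.20, 1.20, 0.77, 0.75 and 0.54 in that order, against 0.02 over all genes. In the miSCA7Stuffer and intmiS1 comparisons none of these genes passed by edgeR, where 1 and 0 of all genes did.

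MMP14 rose from 12.3 ± 1.66 CPM with empty capsid to 255 ± 114 CPM with StufferOnly (SD, n = 3 each). CTSL, a lysosomal protease, rose from 25.1 ± 0.743 to 110 ± 34 CPM, and MRC2, an uptake receptor for collagen, from 12.9 ± 1.92 to 35.3 ± 2.96 CPM. P4HB, a subunit of prolyl hydroxylase, rose from 69.9 ± 5.1 to 133 ± 27.3 CPM, and COLGALT1 from 15.7 ± 0.442 to 80.7 ± 17.1 CPM. The lysyl oxidase relatives LOXL3 and LOXL2, which crosslink collagen, rose from 20 ± 1.92 to 50.4 ± 2.53 CPM and from 0.395 ± 0.147 to 4.39 ± 3.27 CPM. TGFB1 rose from 24.1 ± 2.51 to 87.1 ± 12.6 CPM, while TGFB3, another ligand of that family, fell from 48.8 ± 4.51 to 22.8 ± 2.05 CPM. The laminin chain gene LAMB2 rose from 83.2 ± 3.37 to 147 ± 24.5 CPM, and ITGA2, a collagen-binding integrin, fell from 68.9 ± 14 to 38.2 ± 3.63 CPM.

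**Figure D5:**
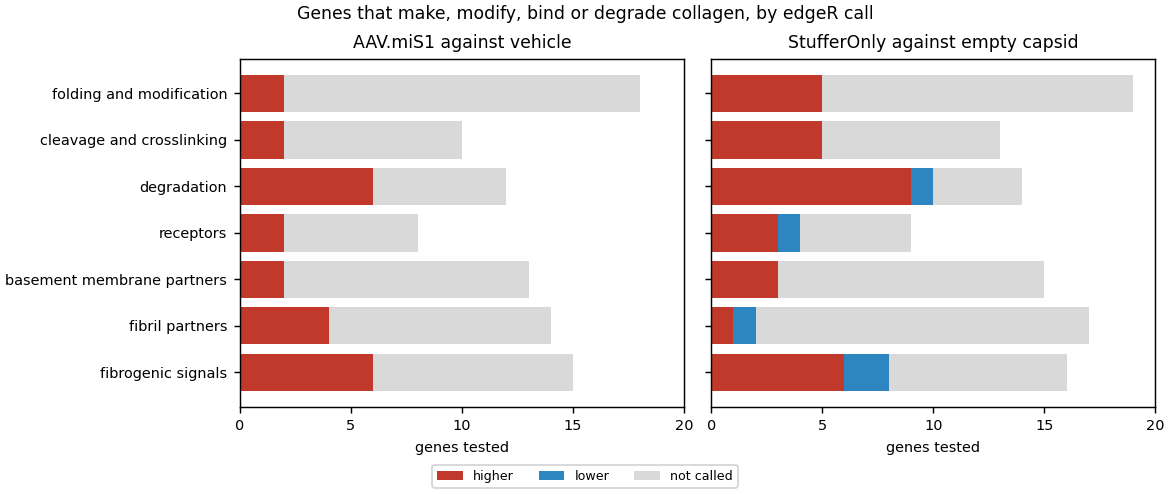
Number of tested genes in each collagen-related list that were higher (red), lower (blue) or not called (grey) by edgeR at an adjusted p under 0.05, for AAV.miS1 against vehicle (left) and StufferOnly against empty capsid (right). The degradation list has 6 of 12 genes higher on the left and 9 of 14 on the right.

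Markers of other cells moved with the same libraries, and their part in the collagen levels was not tested. Over all genes 7.22% rose and 0.284% fell with AAV.miS1, and 11.6% and 3.81% with StufferOnly, and the marker counts are read beside these shares. Of 12 macrophage and microglia markers, 8 rose with AAV.miS1 and 9 with StufferOnly. Their summed CPM was 543 to 1396 with vehicle and 1039 to 21654 with AAV.miS1, with the highest sums in replicates 1 and 4. It was 467 to 560 with empty capsid, 464 to 684 with intmiS1 and 4937 to 7648 with StufferOnly, and 417, 4382 and 5107 in miSCA7Stuffer replicates 1, 2 and 3. Neuron markers (6 genes) summed to 1230 to 1940 CPM with vehicle and 25.9 to 1486 CPM with AAV.miS1, lowest in replicate 1, and none passed in either comparison. Markers of the deep nuclei and cerebellum had negative values for 8 of 8 tested with AAV.miS1 (median log2 fold change -1.18), of which 1 fell, CALB1, and their sums were 88.6 to 456 CPM against 441 to 778 CPM. With StufferOnly 0 of 10 passed, at 159 to 260.2 CPM against 299.7 to 337 CPM. Of 7 astrocyte markers 0 passed in either comparison, and their sum was 2679 CPM in AAV.miS1 replicate 1, 11495 to 26019 CPM in the other 5 and 12924 to 15368 CPM with vehicle. With StufferOnly it was 6241 to 13528 CPM against 11027 to 11727 CPM.

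Fibroblast markers were matched for 13 of 15 genes, and none was at 0 in every library of a group. With AAV.miS1 0 of 8 tested passed, and with StufferOnly 1 of 13 rose, CRABP2, a retinoic acid binding protein, from 0.432 ± 0.258 to 11.5 ± 10.4 CPM. Their sum was 567.7 to 1363 CPM with AAV.miS1 and 952 to 1272 CPM with vehicle, and PTGDS gave most of it in the vehicle libraries but not in AAV.miS1 replicates 1 and 4, whose sums were 1260.1 and 1363 CPM. Without PTGDS, a subset chosen after its values were seen, the other 12 summed to 1011 and 889 CPM in AAV.miS1 replicates 1 and 4, to 140 to 236 CPM in the other 4, and to 121 to 165 CPM with vehicle. They summed to 141, 433 and 412 CPM with StufferOnly, 70.4, 450 and 160 CPM with miSCA7Stuffer, 115 to 145 CPM with intmiS1 and 86.9 to 126 CPM with empty capsid. Replicates 1 and 4 of AAV.miS1 and replicate 2 of miSCA7Stuffer were highest of their groups both in these markers and in COL1A1. Other libraries followed less closely. StufferOnly replicates 2 and 3 were near each other in these markers, with COL1A1 at 300 and 106 CPM. AAV.miS1 replicates 2 and 3 were at 152 and 236 CPM in these markers, with COL1A1 at 64 CPM or more.

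Endothelial markers (12 genes) summed to 576 to 819 CPM with AAV.miS1 and 610 to 774 CPM with vehicle, and 0 of 12 passed. With StufferOnly 2 of 12 rose, PECAM1 and VWF, where 11.6% of all genes did, and the sums were 480 to 620 CPM against 398 to 543 CPM. Most of the list went the other way, with 9 negative and 3 positive log2 fold changes (median -0.48). For 6 of the 12, every StufferOnly library lay below every empty capsid library, where 22.3% of all genes did. Pericyte and smooth muscle markers (12 genes) summed to 212 to 243 CPM with StufferOnly and 258 to 300.0 CPM with empty capsid, with 1 of 11 tested higher and 1 lower. Oligodendrocyte markers, which include genes of the myelin sheath, had 4 of 6 lower with StufferOnly, at a sum of 15007 to 17469.6 CPM against 25147 to 37745 CPM. Oligodendrocyte precursor markers had 2 of 6 lower, at 515 to 887 CPM against 1037 to 1146 CPM. Choroid plexus markers summed to 7.99 to 128 CPM with AAV.miS1, highest in replicate 4, and to 14.6 to 49.5 CPM with vehicle.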

How the data were processed

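RNA counts of 22 deep cerebellar nuclei libraries were used. The authors deposited raw read counts per gene, aligned with STAR 2.6.0c per the submitters' processing notes. Per the file headers, 10 Study 2 libraries were counted with featureCounts with overlapping genes counted in each. The 10 Study 1 libraries and 2 intmiS1 libraries have the layout of STAR gene counts. DESeq2 is also in the submitters' notes. No header or label names a genome build, an annotation or the strand setting of featureCounts. For Study 1 the reverse-strand column was read, and the unstranded column for the 2 STAR-counted intmiS1 libraries. Reads that named no gene (63.59% to 72.047% in Study 1) stayed out of library sizes.

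Gene symbols came from an identifier table (24009 of 34847 matched). RefSeq genes matched all 43 collagens and gave neighbours only, since builds may differ. The collagen genes and lists were chosen with earlier results of these data known. Genes were named by a rule: every collagen past the threshold, the most abundant, chain partners, and up to 3 genes of smallest p in each list.

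Counts were tested with edgeR 4.0.16 in R 4.3.3 (TMM, filterByExpr with a minimum count of 10 and total of 15, prior count 0.125, quasi-likelihood F test, Benjamini-Hochberg adjustment over all genes tested, threshold 0.05). Only the compared study entered each fit, and the StufferOnly and miSCA7Stuffer comparisons used the 9 featureCounts libraries of those groups and empty capsid. Differences between effects were fitted over 22 libraries. SE is the log2 fold change divided by the square root of F. Replicates were separate animals by their identifiers. Alternatives were DESeq2 1.42.0, its size factors in edgeR, no low-count filter, other strand columns, covariates for unmapped share or counting program, leaving out each library, and the replicate number as a block. Tested on simulated data, edgeR recovered 97% of genes changed 4-fold and 99% of those changed 16-fold in the AAV.miS1 design (13158 genes), 90% and 100% in the StufferOnly design (20301 genes), and 85% and 100% in the intmiS1 design (20801 genes). In the simulation, genes with few counts were not among those changed, and a gene's fold change was the same in every animal of a group. The recovered shares therefore do not give the power for collagen genes with few counts or with uneven changes between animals. Small RNA libraries were not used here.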

Additional observations from a re-analysis of the deposited data

Results flagged for a closer look

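Groups of 4 or more libraries (vehicle and AAV.miS1) were checked for the collagen genes named by rule, most of them chosen by their calls. In 4 of these 36 groups of values, 1 library stood farther from the rest than Dixon's critical value at the 95% level allows. Chance alone gives about 1 in 20. In vehicle replicate 2, the library with 87741 counts, COL6A1 was at 31.0 CPM (3 counts, next highest 6.88), COL6A3 at 10.3 CPM (1 count, next highest 2.24) and COL9A1 at 31.0 CPM (3 counts, next highest 9.04). In AAV.miS1 replicate 3, COL4A2 was at 87.0 CPM (246 counts), and the next highest library was at 55.0 CPM.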

How the results depend on the processing

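With DESeq2 the collagen genes called higher numbered 10 for AAV.miS1 and 8 for miSCA7Stuffer, with 1 lower for the latter, 2 higher and 1 lower for miSCA7Stuffer against StufferOnly, and 4 higher and 8 lower for intmiS1 against StufferOnly. For miSCA7Stuffer, DESeq2 called 7.22% of all genes higher and 3.98% lower. The other counts in this paragraph have no share of all genes beside them and are a description only. For AAV.miS1 the count was 0 with the unmapped-share set as a covariate and 0 within the libraries over 15% unmapped. For intmiS1 against StufferOnly, the fits with the counting program as a covariate and with featureCounts libraries only rest on intmiS1 replicate 3 alone. That library is assumed to vary like the other groups, so the counts of these fits are not given. Leaving out 1 library at a time gave 0 to 10 higher for AAV.miS1, 0 to 9 higher and 0 to 2 lower for StufferOnly, 0 to 9 higher and 0 to 4 lower for miSCA7Stuffer, 0 to 1 higher for miSCA7Stuffer against StufferOnly, and 0 to 2 higher and 0 to 2 lower for intmiS1 against StufferOnly. The causes were not tested. The intmiS1 comparison with empty capsid, apart from the fits that rest on replicate 3 alone, and the differences between effects gave 0 under each alternative run. Of 226 alternative values of the 19 named results, 105 kept their direction and side of the threshold, 121 kept their direction but no longer passed, and 0 reversed. With the replicate number as a block, StufferOnly had 10 higher and 3 lower, intmiS1 against StufferOnly 2 and 3, and the other Study 2 comparisons 0. Of 18 same-numbered pairs of libraries 6 had deviations correlated over 0.1 (range -0.12 to 0.52), so the numbers were not taken as pairs. In vehicle replicate 2, differences under 31 CPM were not detectable for a gene without counts.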
